A study of Mus musculus with 6 samples.

Results

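The cytosolic ribosomal protein genes were taken by name: protein-coding genes whose symbol is Rpl or Rps with a number, together with Rplp0, Rplp1, Rplp2, Rpsa and Fau, and without the Rps6k kinases. The rule found 84 genes of the 55487 listed, on 20 chromosomes. Of these, 51 encode proteins of the large subunit and 33 proteins of the small subunit. At least 10 reads in at least 3 libraries were counted for 83 of the 84 genes, and these 83 were tested. The gene left out was Rpl10l, an intronless relative of Rpl10 that is known from the testis. It had 0.9 normalized counts in control library 2 and was at 0 in the other 5 libraries.

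Each ribosome holds a single copy of nearly all of these proteins, arranged around the ribosomal RNA, and the proteins are made in balance with each other. Their mRNAs are among the most abundant of dividing cells and start with a run of pyrimidines, the terminal oligopyrimidine (TOP) sequence, through which mTOR signalling sets their translation. Mammalian genomes hold for most of them a single gene with introns and many processed pseudogenes, which are intronless copies made from the mRNA. Rpl29 encodes a large subunit protein that mice can live without, at a smaller body size.

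The cells were sorted at P7.5 for GFP and tdTomato, as retinal vascular endothelial cells (VECs). Control animals were tdTomato FL/+;Pdgf-icreER, and Bmal1;CKO animals were Bmal1 FL/FL;tdTomato FL/+;Pdgf-icreER, with 3 libraries in each group. Both groups thus carried the tamoxifen-inducible Cre with its GFP and the tdTomato reporter, and tamoxifen was given to both between P0.5 and P2.5. The control animals did not carry the floxed Bmal1 allele, so floxed Bmal1 and its recombination cannot be told apart here. Whether the groups shared litters is not given in the sources used here.

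A normalized count here is the number of reads on a gene divided by the size factor of the library, and libraries keep the table's numbers, with control as 1 to 3 and Bmal1;CKO as 4 to 6. The libraries held 71145068 to 104017800 reads on genes. Bmal1, listed as Arntl, had 1700, 3489 and 2928 normalized counts in control and 1779, 2747 and 2415 in Bmal1;CKO. The groups overlapped, and the count covers the whole gene, the deleted exon and the rest together, so it does not check the labels. The 12 endothelial markers summed to 183928 to 366843 normalized counts in control and 113750 to 234134 in Bmal1;CKO, and the 9 markers of microglia and macrophages to 1386183 to 4103347 and 2013410 to 3985845. In every library the endothelial list took fewer reads (0.133% to 0.342%) than the microglial (1.86% to 3.98%) and rod lists (0.396% to 0.982%). It took more than the lists of pericytes, erythroid and ganglion cells. The lists hold different genes, so these shares do not give numbers of cells. None of these 21 markers was at 0 in any library, and neither was any of the 12 rod markers, which summed to 609684 to 731487 and 396115 to 705725. All 12 endothelial markers had a fold change below 0 (median log2 fold change -0.50) and 8 of the 9 microglial markers one above 0 (median 0.40). With 1 library left out these medians ran from -0.86 to -0.16 and from 0.07 to 0.74. In limma-trend 0 markers of either list had an unadjusted p under 0.05, beside 1.75% lower and 3.17% higher of all tested genes. Of the 12 rod markers 11 were below 0 (median -0.31), and 3 of them were lower at an unadjusted p under 0.05, beside 1.75% of all tested genes. All 5 tested markers of Muller glia, of 6 listed, were above 0 (median 0.48). The list, which holds Apoe, took 15.5%, 5.7% and 5.40% of the reads in control libraries 1 to 3 and 9.54% to 13.8% in Bmal1;CKO. The median deviation of its markers from their own mean over the 6 libraries was -0.15, -0.06 and 0.03 (log2) in control. The share did not follow the typical marker, so it does not measure the content of Muller glia. The part of these cell types in the values below was not tested. In RNA from sorted pools, fewer cells of a type and less RNA per cell cannot be told apart.

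Rpl29 was the member with the largest difference between the groups. It had 28967, 14846 and 7462 normalized counts in control libraries 1, 2 and 3, and 401, 271 and 243 in Bmal1;CKO libraries 4, 5 and 6. The groups did not overlap: the lowest control library stood far above the highest Bmal1;CKO library. Control averaged 17092 ± 10927 (SD, n = 3) and Bmal1;CKO averaged 305 ± 84.2 (SD, n = 3). In limma-trend this gave a log2 fold change of -5.63 (standard error 0.50, unadjusted p = 5.39e-06, adjusted p = 0.110). The difference therefore did not pass an FDR of 0.05 in that test, in which 0% of the 20459 tested genes passed. By DESeq2's Wald test the adjusted p was 1.45e-25, in a fit that called 0.327% of all genes, whereas edgeR's quasi-likelihood test gave 0.114. Under 17 other settings the log2 fold change lay between -6.12 and -2.55, and 5 of them passed the threshold, among them the fit without control library 1 (adjusted p = 0.0166, limma-trend). An exact permutation test, two-sided, of 3 libraries against 3 gave p = 0.1 and can give no smaller value.

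Among the members, Rpl29 ranked 3, 4 and 7 by normalized count in the control libraries and 60, 70 and 64 in the Bmal1;CKO libraries. It took 8.57%, 5.91% and 5.52% of the counts of all members in control, and 0.178%, 0.162% and 0.171% in Bmal1;CKO. These shares compare members within a library, so they do not depend on the scaling between libraries. In reads, the Bmal1;CKO libraries still held 285, 314 and 295 on Rpl29, so the count was low there and not at 0. Whether these reads came from Rpl29 itself or from its pseudogenes was not tested.

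Rpl29 (ENSMUSG00000048758) lies on the forward strand of chr9:106429454-106431568 in GRCm38, and no other annotated gene overlaps it. Its coding sequence has 480 bases in 3 coding exons. Pseudogenes that share at least 1 run of 50 bases with its longest coding transcript, and share most with Rpl29 among the members, are here called its copies. There were 79 of them, and 17 were tested. In 3 copies the Bmal1;CKO libraries were all below the control libraries, in 2 they were all above, and in 12 the groups overlapped. Of all 2918 tested pseudogenes, 3.43% were lower in this sense and 4.59% higher.

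The copies nearest to Rpl29 in sequence did not move alike. Gm10709, on chromosome 9 but far from Rpl29, had 272, 225 and 135 normalized counts in control and 1.4, 4.3 and 2.5 in Bmal1;CKO. Gm5561, on chromosome 1, had 145, 90.01 and 45.0 in control and 1.4, 1.7 and 3.3 in Bmal1;CKO. Both had 1 to 5 reads in each Bmal1;CKO library, so their libraries did not overlap and no fold is given. Gm8210, also on chromosome 1, had 1197, 689 and 287 in control and 1609, 846 and 881 in Bmal1;CKO, and its groups overlapped. Gm13841, on chromosome 5, had 77.5, 52.0 and 17.1 in control and 176, 39.7 and 33.8 in Bmal1;CKO, again with overlap. The third copy that was lower, Gm17669, had 32.0, 23.2 and 11.4 in control and 0, 0 and 0.82 in Bmal1;CKO. The copies that were higher, Gm12987 and Gm49298, had at most 13.6 in control and 13.8 to 61.8 in Bmal1;CKO.

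The sequences show how close these copies are to the gene. Positions are counted from 1 at the first base of the start codon, and the first base of each substitution is that of Rpl29. Gm10709 differs from the Rpl29 coding sequence at 4 places, G205A, C300T, T423C and G457A. Gm8210 and Gm13841 each differ at 3 places, C72A, C300T and T423C. C300T and T423C are thus in all of these, and are also among the 8 substitutions of Gm5561, whereas C72A is in Gm8210 and Gm13841 and not in Gm10709 or Gm5561. Coding positions 38 to 102 are printed below for the gene and these copies, with position 72 in capitals, since that base separates the pairs. This position was chosen after the counts had been seen, and it is a description of the reference genome, not of these animals.
Rpl29, forward strand of chr9:106430308-106430372: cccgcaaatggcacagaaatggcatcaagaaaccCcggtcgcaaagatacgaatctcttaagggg
Gm10709, forward strand of chr9:7751762-7751826: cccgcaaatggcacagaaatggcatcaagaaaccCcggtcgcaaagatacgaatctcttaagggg
Gm5561, reverse strand of chr1:179520756-179520820: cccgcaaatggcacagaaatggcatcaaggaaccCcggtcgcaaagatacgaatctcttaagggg
Gm8210, forward strand of chr1:43189193-43189257: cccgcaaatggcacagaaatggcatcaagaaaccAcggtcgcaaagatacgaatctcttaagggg
Gm13841, reverse strand of chr5:115802058-115802122: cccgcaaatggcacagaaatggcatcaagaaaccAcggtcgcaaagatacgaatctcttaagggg

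Over the 17 tested copies, the base at coding position 72 was C in 12, A in 3 and another base in 2. The 3 copies that were lower in Bmal1;CKO all had C, but so did most of the copies whose groups overlapped, so the base alone did not mark the copies that were lower.

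All 79 copies together had 5333, 2506 and 1630 normalized counts in control and 3686, 2543 and 2093 in Bmal1;CKO, and these sums overlapped between the groups. Rpl29 itself made up 84.5%, 85.6% and 82.1% of the counts on the gene and its copies in control, against 9.81%, 9.64% and 10.4% in Bmal1;CKO. With the copies added to the gene, the log2 fold change in limma-trend was -2.55 (adjusted p = 0.674). The difference between the groups was thus carried by reads assigned to Rpl29 and to a few of its copies. How reads that fit several places were counted is not given in the sources used here, and the part of that choice in the counts was not tested.

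The genes beside Rpl29 were followed as well, with the 3 nearest tested protein-coding genes on each side. Abhd14a, a hydrolase-like protein gene downstream of Rpl29, had 3995, 5340 and 4291 normalized counts in control and 1803, 1489 and 1597 in Bmal1;CKO. Its neighbour Abhd14b had 2004, 4018 and 3173 in control and 610, 1062 and 949 in Bmal1;CKO. Both were lower without overlap, with log2 fold changes of -1.47 (standard error 0.26) and -1.79 (standard error 0.39) and adjusted p of 0.507 and 0.825 from limma-trend. Acy1, an aminoacylase gene between them and Rpl29, stood the other way, with 529, 892 and 899 in control and 944, 1455 and 1190 in Bmal1;CKO. Upstream, the centriole gene Poc1a had 2083, 714 and 920 in control and 560, 550 and 532 in Bmal1;CKO, and neither gene's groups overlapped. Dusp7, a MAP kinase phosphatase, and Alas1, the first enzyme of heme synthesis, overlapped between the groups, with log2 fold changes of 0.07 and -0.06. Abhd14a and Abhd14b overlap each other at one end on opposite strands, and the use of strand in the counting is not given, so reads in that short stretch may belong to either.

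**Figure D1:**
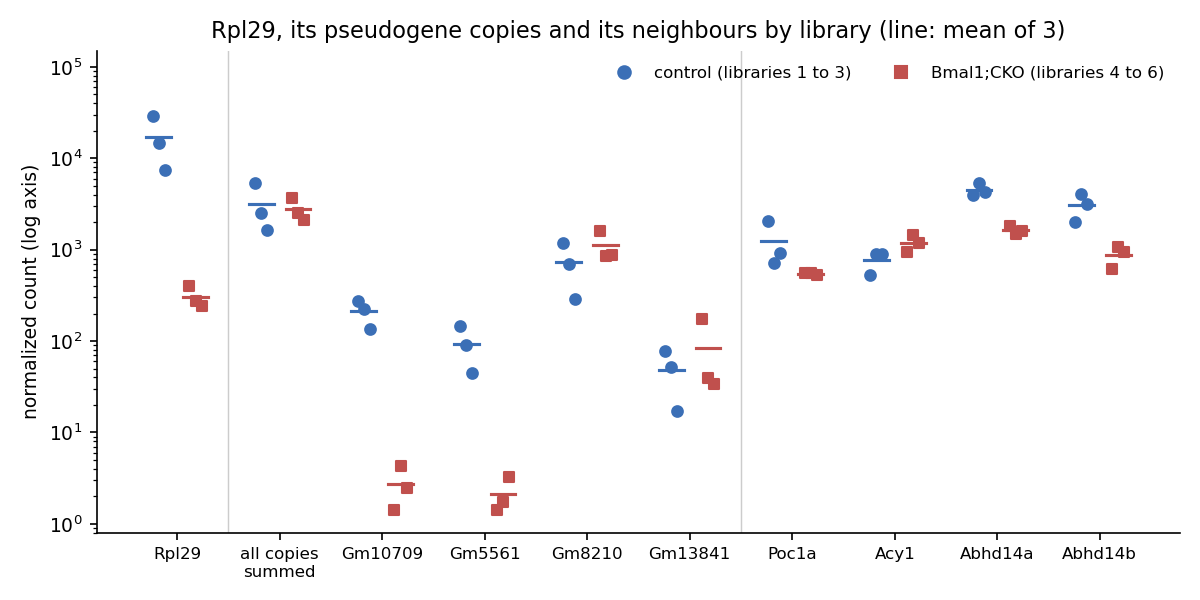
Normalized counts on a log axis for Rpl29, the sum of its 79 pseudogene copies, 4 single copies and 4 neighbouring genes, with a point for each library, circles for control, squares for Bmal1;CKO and a line at the mean of 3. Rpl29, Gm10709 and Gm5561 lie far lower in Bmal1;CKO, whereas the summed copies, Gm8210 and Gm13841 overlap between the groups.

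As a set, the ribosomal protein genes did not differ between the groups beyond the spread of the libraries. In limma-trend, 0 of the 83 tested members passed an FDR of 0.05, as in edgeR's quasi-likelihood test and limma-voom. DESeq2's Wald test called 1, Rpl29. Of all 20459 tested genes, 0% passed in each of the first 3 tests and 0.327% in DESeq2's, so no call among the members was no trait of this set. At an unadjusted p under 0.05, 2 members were lower in Bmal1;CKO, Rpl29 and Rpl15, where 1.75% of all tested genes were lower. At the same p, 1 member was higher, Rpl18, where 3.17% of all tested genes were higher. The log2 fold change was below 0 in 50 members and above 0 in 33, with a median of -0.09 beside 0.11 over all tested genes. The median was -0.07 in the large subunit and -0.09 in the small subunit, whose members lay between -0.84 and 0.94.

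The sign of that median rested on single libraries. It was 0.15 with control library 1 left out, 0.03 with Bmal1;CKO library 6 left out and -0.47 with control library 3 left out. Without control library 3, 12 members were lower at an unadjusted p under 0.05 and 0 higher in limma-trend, beside 4.65% and 7.30% of all tested genes. With edgeR and TMM scaling the median of the members was -0.21 and that of all genes -0.03. When each library was scaled to the reads of the members other than Rpl29, the median of the members was 0.18 and that of all genes 0.37.

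**Figure D2:**
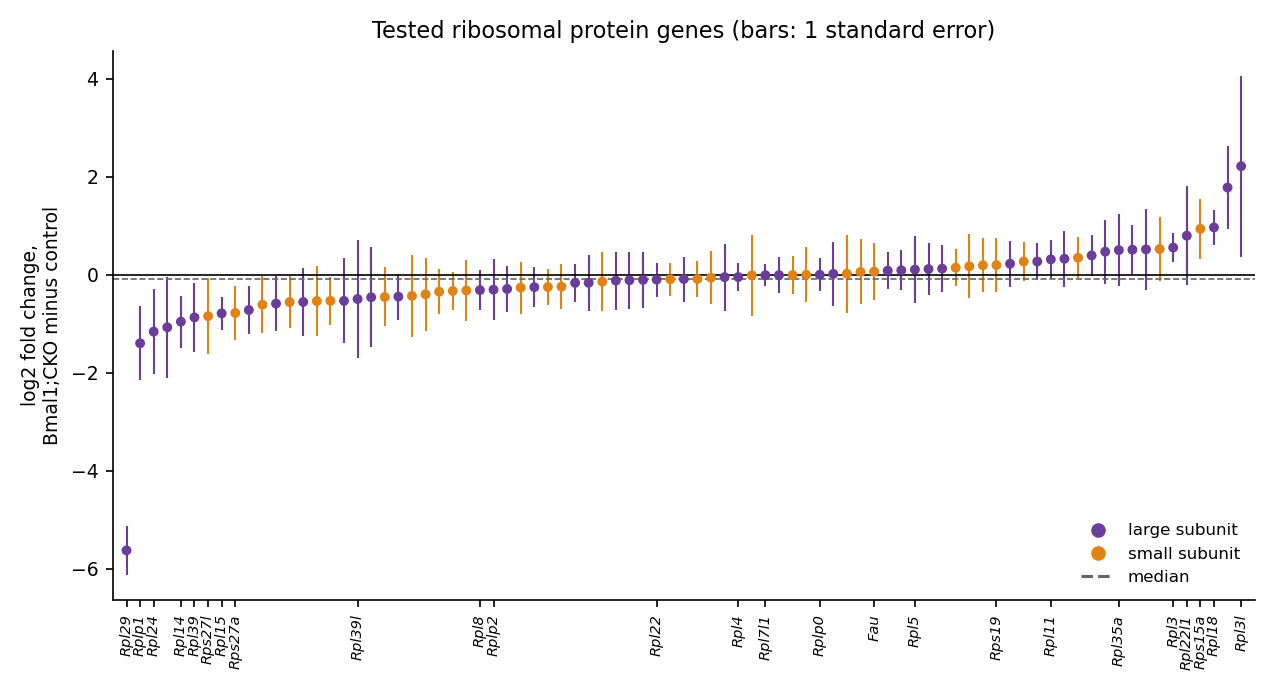
Log2 fold change (Bmal1;CKO minus control) of the 83 tested ribosomal protein genes in order of size, with bars of 1 standard error, purple for the large and orange for the small subunit, and a dashed line at the median. The axis names some of the genes described in the text. Rpl29 stands alone at -5.63, and the next lowest, Rplp1, is at -1.40.

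In 5 members the groups did not overlap. Rpl29, Rpl24 and Rpl39 were lower in Bmal1;CKO, where 4.54% of all tested genes were lower in this sense, and Rpl18 and Rpl3 were higher, where 6.62% were. Without control library 3, 29 members were lower and 4 higher in this sense, beside 14% and 16.7% of all tested genes. Rpl24, a large subunit protein whose mutation gives the Belly spot and tail mouse, had 112, 132 and 51.4 normalized counts in control and 50.6, 41.5 and 31.3 in Bmal1;CKO. The gap between the groups was narrow, and the log2 fold change was -1.16 (standard error 0.87). Rpl39, a small protein of the exit tunnel, had 121, 187 and 187 in control and 92.8, 100 and 73.3 in Bmal1;CKO, with a log2 fold change of -0.87 (standard error 0.70).

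Rpl18 had 727, 1083 and 724 normalized counts in control and 2053, 1721 and 1211 in Bmal1;CKO. Each Bmal1;CKO library was above the highest control library, and the log2 fold change was 0.97 (standard error 0.37, unadjusted p = 0.0305 and adjusted p = 0.883 from limma-trend). With its pseudogene copies added it was -0.22. Rpl3, which lies at the peptidyl transferase centre, had 1822, 2212 and 1376 in control and 2723, 2882 and 2251 in Bmal1;CKO. Its log2 fold change of 0.56 (standard error 0.30) became -0.05 with its copies added.

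Rpl15 had 5139, 5206 and 2724 normalized counts in control and 2910, 2221 and 2197 in Bmal1;CKO. Control library 3 lay below Bmal1;CKO library 4, so the groups overlapped. The log2 fold change was -0.79 (standard error 0.33, unadjusted p = 0.0473 and adjusted p = 0.883 from limma-trend). Rpl18 overlaps Sphk2 and Rpl15 overlaps Nkiras1, each on the opposite strand, as 23 members overlap some gene of the other strand, and such reads may belong to either.

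The acidic stalk, where translation factors dock, is built of Rplp0, Rplp1 and Rplp2. Rplp1 had 9764, 7386 and 1191 normalized counts in control and 2391, 1402 and 1405 in Bmal1;CKO. Control library 3 was the lowest of all 6, so the log2 fold change of -1.40 (standard error 0.75, adjusted p = 0.883) came from the other control libraries. Rplp0, often used as a reference gene, had 10042, 6819 and 6481 in control and 11629, 6173 and 6220 in Bmal1;CKO, with a log2 fold change of 0.00 (standard error 0.33). Rplp2 had 624, 307 and 201 in control and 339, 295 and 206 in Bmal1;CKO.

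**Figure D3:**
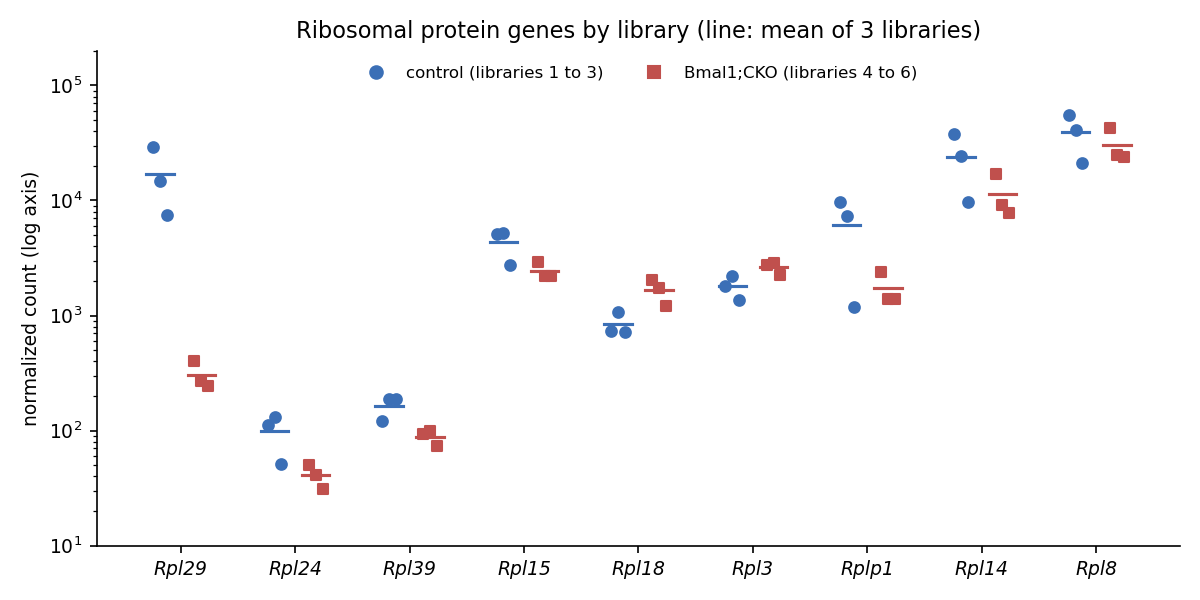
Normalized counts on a log axis for 9 ribosomal protein genes, with a point for each library, circles for control, squares for Bmal1;CKO and a line at the mean of 3. Rpl29 separates the groups by far the most, whereas in Rplp1, Rpl14 and Rpl8 the spread among the control libraries covers or nearly covers the Bmal1;CKO libraries.

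Rpl5, Rpl11, Rpl23 and Rpl26 bind or regulate Mdm2 when ribosome assembly fails, which couples the ribosome to p53. Of these 4 genes, 0 passed the unadjusted p under 0.05 in limma-trend, and their log2 fold changes lay between -0.16 and 0.32. Rpl11 had 1050, 748 and 555 normalized counts in control and 1039, 952 and 852 in Bmal1;CKO. Rpl5 had 410, 188 and 141 in control and 146, 306 and 304 in Bmal1;CKO. Among 9 tested p53 target genes, 1 was lower at an unadjusted p under 0.05 and 0 were higher, beside 1.75% and 3.17% of all genes. That gene was Ccng1, a cyclin G gene, with 4516, 3188 and 4203 in control and 1529, 1461 and 2022 in Bmal1;CKO (log2 fold change -1.25, adjusted p = 0.825).

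The 11 members mutated in Diamond-Blackfan anaemia, a failure of red cell production, gave 0 calls at an unadjusted p under 0.05 in limma-trend, beside 1.75% lower and 3.17% higher of all tested genes, with log2 fold changes between -0.45 and 0.51 and a median of 0.00. Rps19, the gene most often mutated in it, had 838, 444 and 287 normalized counts in control and 779, 488 and 424 in Bmal1;CKO. Erythroid markers summed to 1257, 5658 and 19009 in control libraries 1, 2 and 3 and to 9939, 1968 and 1438 in Bmal1;CKO, and their part in these values was not tested.

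Several ribosomal proteins have a second gene. Rpl7l1, a factor of large subunit assembly related to Rpl7, was the steadiest of these, with 9511, 8778 and 12052 normalized counts in control and 9662, 10156 and 10106 in Bmal1;CKO. Rpl22l1 had 1068, 915 and 74.3 in control and 537, 1156 and 624 in Bmal1;CKO, whereas its partner Rpl22 had 2087, 3991 and 2667 in control and 3421, 2660 and 1996 in Bmal1;CKO. Rps27l, which p53 can induce, had 1422, 916 and 190 in control and 442, 376 and 258 in Bmal1;CKO. Rpl39l had 568, 77.9 and 36.4 in control and 169, 37.1 and 92.3 in Bmal1;CKO. Rpl3l, known from muscle, was at 0 in control library 1 and between 64.0 and 159 in the other 5, and its log2 fold change of 2.22 (standard error 1.85) rests on that 0. The groups overlapped in all of these.

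Rps27a and Fau are made as fusions with ubiquitin or a ubiquitin-like protein. Rps27a had 1365, 1198 and 391 normalized counts in control and 442, 595 and 481 in Bmal1;CKO, and Fau had 1024, 442 and 279 in control and 643, 550 and 409 in Bmal1;CKO. Rack1, a scaffold of the small subunit whose symbol is outside the naming rule, had a log2 fold change of -0.03.

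Levels between members were compared per kilobase of exon, as the mean of the 6 libraries. Among the highest were Rpl8 at 25697, Rpl14 at 10648, Rps15 at 8221 and Rplp1 at 7862 normalized counts per kilobase. Rpl29, at 7725 over all 6 libraries, was also high, through its control libraries. The lowest tested members were Rps15a at 43.6, Rpl35a at 46.6, Rpl3l at 54.1, Rpl5 at 63.6 and Rpl24 at 67.7. Apart from Rpl3l, these are general proteins of the ribosome. Pseudogene copies held 82.2% to 99.45% of the counts on gene and copies together in Rps15a, Rpl35a, Rpl5 and Rpl24, and 0% in Rpl3l. Among the high members this was 0.0029% in Rpl8 but 81.95% in Rpl14. The levels count only reads assigned to the gene, over all its annotated exon bases, and so do not rank the members by expression alone.

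Among the highest members, Rpl8 and Rpl14 varied together over the libraries. Rpl8 had 55565, 41176 and 21246 normalized counts in control and 42651, 25019 and 23880 in Bmal1;CKO. Rpl14 had 37657, 24244 and 9644 in control and 17035, 9145 and 7749 in Bmal1;CKO. In both of them the control group alone spanned most of the range seen in all 6 libraries.

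That pattern held over most members. Control library 1 was the highest library for 47 of the 84 members, and control library 3 the lowest for 56. The median deviation of a member from its own mean over the 6 libraries was 0.62, 0.36 and -0.68 on the log2 scale in control libraries 1 to 3, and 0.21, -0.03 and -0.33 in Bmal1;CKO libraries 4 to 6. The standard deviation on the log2 scale was larger in control than in Bmal1;CKO for 76 of the 83 tested members, or 91.6%, beside 74.95% of all tested genes. Its median over the members was 0.79 in control and 0.37 in Bmal1;CKO, close to the 0.76 and 0.42 over all tested genes. Mitochondrial ribosomal proteins, which serve the separate ribosome of the mitochondrion, had median deviations of 0.43, 0.16 and -0.41 in control and 0.25, -0.08 and -0.37 in Bmal1;CKO. Pericyte markers summed to 2364, 6979 and 45844 in control and 7571, 4101 and 6767 in Bmal1;CKO, so control library 3 was the highest in them, and their part in this order was not tested.

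**Figure D4:**
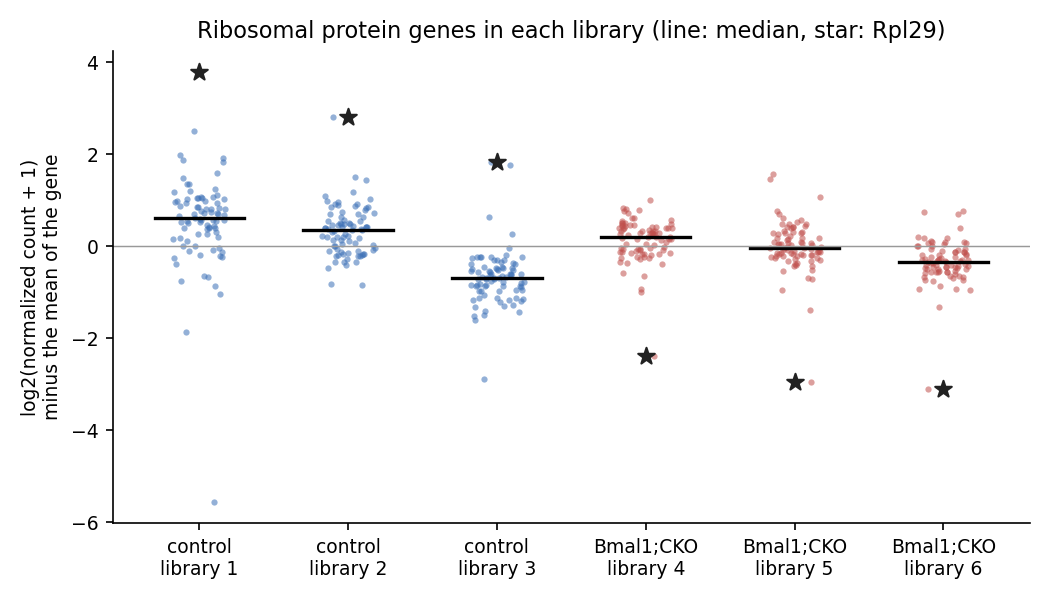
Log2(normalized count + 1) of each tested ribosomal protein gene minus its mean over the 6 libraries, with a point for each gene, a line at the median and a star at Rpl29, for control libraries 1 to 3 and Bmal1;CKO libraries 4 to 6. The medians run from 0.62 in control library 1 to -0.68 in control library 3, and Rpl29 lies above them in control and below them in Bmal1;CKO.

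The summed counts of the large subunit members stood to those of the small subunit at a ratio of 2.74, 2.69 and 2.78 in control and 2.34, 2.41 and 2.41 in Bmal1;CKO. The groups did not overlap, and an exact permutation test, two-sided, gave p = 0.1, below which it cannot go. Without Rpl29 the ratio was 2.42, 2.47 and 2.57 in control and 2.34, 2.41 and 2.40 in Bmal1;CKO. The groups still did not overlap, with the same p = 0.1 in that exact permutation test, and lay closer together than with Rpl29.

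The members together took 0.315%, 0.337% and 0.182% of the reads on genes in control and 0.225%, 0.195% and 0.185% in Bmal1;CKO. The means were 0.278% ± 0.0839 (SD, n = 3) and 0.202% ± 0.0208 (SD, n = 3), with overlap between the groups (exact permutation test, two-sided, p = 0.4). Reads on the pseudogene copies were several times as many. The 1103 pseudogenes that share a run of 50 bases with a member took 2.14%, 2.23% and 0.954% of the reads in control and 1.53%, 0.993% and 1.05% in Bmal1;CKO. This came to 5.08 to 6.82 reads on copies for each read on a member.

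Of the 84 members, 81 had such a copy, up to 119 for Rpl7a. In 62 members the copies held over 50% of the counts of the member and its copies together, and in 33 over 90%. Rpl24 is an example: beside its 31.3 to 132 normalized counts, its 8 copies held 6406 to 20160. Single copies were among the highest of these features. Gm5835, a copy of Rpl4, had 95033 to 161842 normalized counts, beside 10023 to 16920 for Rpl4.

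**Figure D5:**
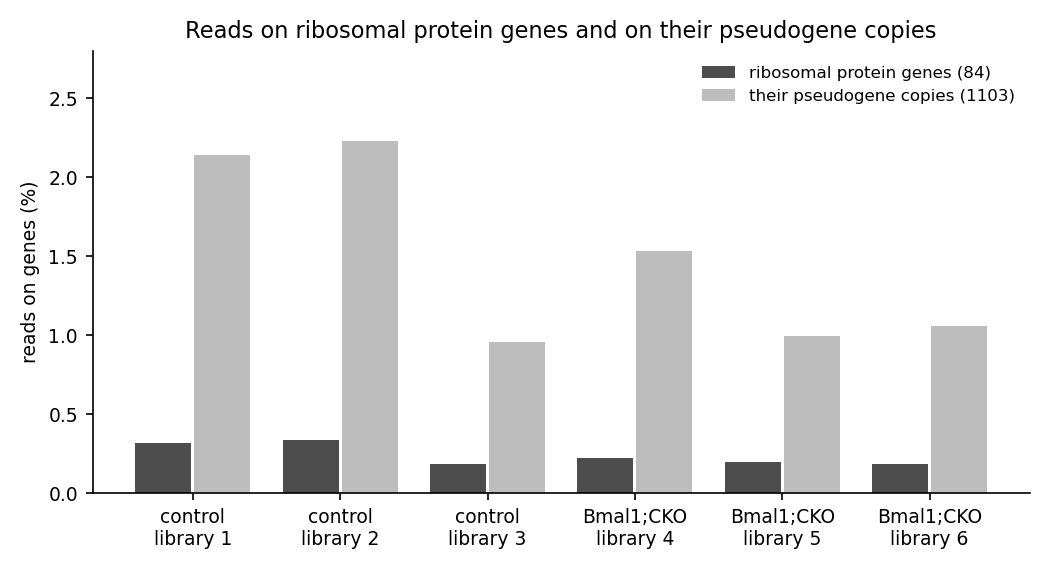
Percent of the reads on genes that fell on the 84 ribosomal protein genes (dark bars) and on their 1103 pseudogene copies (light bars) in each library, with the axis from 0. The light bars stand 5.08 to 6.82 times as high as the dark bars in all 6 libraries.

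For each member, the share of 50-base runs that also occur in a transcript of any other gene, pseudogene or not, was taken on its longest coding transcript. It ran from 0% to 86.7%. The median was 41.0%. The 17 tested members under 20% had a median of 667 normalized counts per kilobase, the 44 between 20% and 60% a median of 344, and the 22 at 60% or more a median of 463. The 3 medians lay close together beside the range within each class, which ran from 43.6 to 25697 in the first. A low share did not mean few counts on copies. Rps3, at 2.96%, had 86.7% of the counts of gene and copies on its copies, and Rpl8, at 6.49%, had 0.0029%. The classes therefore do not sort the members by the counts on their copies. When the copies were added to their member, the log2 fold change was below 0 in 76 of the 83 members and above 0 in 7, with a median of -0.52, beside -0.09 without the copies. At an unadjusted p under 0.05, 1 was then lower, Rpl29, and 0 higher, beside 1.74% and 3.17% of all features of that fit. Of the members with their copies, 1 was lower without overlap, again Rpl29. In all the other members the groups overlapped in these sums. The share of all features without overlap was not computed for the sums. Without the sums it was 4.54% lower and 6.62% higher over all tested genes.

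Genes that make or control ribosomes were counted in the same way. Of 38 ribosome biogenesis genes, 0 passed an unadjusted p under 0.05 in limma-trend (median log2 fold change -0.06), beside 1.75% lower and 3.17% higher of all tested genes. Without overlap, 4 of them, or 10.5%, were higher and 3, or 7.89%, lower, beside 6.62% and 4.54% of all tested genes. Polr1a, the largest subunit of RNA polymerase I, which makes ribosomal RNA, had 460, 827 and 812 normalized counts in control and 1352, 894 and 1210 in Bmal1;CKO. Utp18, of the small subunit processome, had 3061, 1677 and 1782 in control and 1281, 1452 and 1372 in Bmal1;CKO. Of 18 other genes with TOP mRNAs, mostly translation factors, 1 was lower at that p and 0 higher, beside 1.75% and 3.17% of all tested genes, with a median of -0.03. This was Nap1l1, a histone chaperone, with 4074, 7308 and 6190 in control and 2872, 3718 and 3765 in Bmal1;CKO.

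Of 16 genes that control the translation or transcription of ribosomal protein genes, 2 were higher and 1 lower at an unadjusted p under 0.05 in limma-trend, beside 3.17% and 1.75% of all tested genes. Without overlap, 3 were higher and 2 lower, beside 6.62% and 4.54%. Tsc1, an inhibitor of mTOR signalling, had 1015, 1035 and 1117 normalized counts in control and 1851, 2195 and 2031 in Bmal1;CKO (log2 fold change 0.94, standard error 0.28, adjusted p = 0.883). Rheb, the GTPase that activates mTOR and that the Tsc complex switches off, had 7925, 8892 and 5376 in control and 4361, 4405 and 4308 in Bmal1;CKO (log2 fold change -0.73). Eif4ebp2, which holds back cap-dependent translation, had 2163, 1307 and 2832 in control and 3823, 3248 and 3793 in Bmal1;CKO (log2 fold change 0.85). In these 3 genes the groups did not overlap, and none of them passed the FDR of 0.05. Of 77 tested mitochondrial ribosomal proteins, 1 was lower and 1 higher at that p, Mrpl50 and Mrpl37, no more than the 1.75% and 3.17% of all tested genes, with a median log2 fold change of -0.15.

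The promoters were read to see what the members share beyond their names. RefSeq gives a promoter on GRCm38, from 250 bases before to 50 bases after the start, for 64 of the members and for 27025 symbols in all. Rpl29 is among the 20 members that were not matched. The start is the annotated one and was not mapped in these cells, so whether a run is found depends on it. A run of at least 6 pyrimidines, each C or T, within 5 bases before to 11 bases after the start was found on the strand of the gene in 27 of the 64 members, or 42.2%, against 15.9% of all symbols. Stretches of 40 bases around the start are printed for members with values above, with the run in capitals.
Rpl15, reverse strand of chr14:18270967-18271006: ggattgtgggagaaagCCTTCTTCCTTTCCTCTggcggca
Rpl18, forward strand of chr7:45718051-45718090: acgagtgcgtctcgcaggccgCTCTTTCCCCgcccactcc
Rpl14, forward strand of chr9:120571497-120571536: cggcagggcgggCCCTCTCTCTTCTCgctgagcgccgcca
Fau, forward strand of chr19:6057927-6057966: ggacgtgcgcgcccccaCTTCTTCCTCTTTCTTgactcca

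The 27 members with a run had a median log2 fold change of -0.01, between -1.07 and 0.97, and the 36 tested members with a promoter but no run one of -0.07. The hexamer CACGTG, the E-box that Bmal1 with Clock can bind, reads the same on both strands. It was found in the promoters of 6 members, or 9.38%, against 8.09% of all symbols, close to the background. These were Rpl34, Rps19, Rpl13a, Rpl14, Rpl23 and Rpl19, and their median log2 fold change was -0.05, between -0.96 and 0.47. The hexamer is shown in capitals in 40 bases of 3 of these promoters.
Rpl14, forward strand of chr9:120571332-120571371: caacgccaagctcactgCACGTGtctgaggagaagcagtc
Rpl23, reverse strand of chr11:97782420-97782459: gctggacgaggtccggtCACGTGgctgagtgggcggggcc
Rps19, forward strand of chr7:24884776-24884815: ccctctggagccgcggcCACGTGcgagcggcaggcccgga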

How the data were processed

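Poly-A RNA of cells sorted as VECs was sequenced in 3 Bmal1;CKO and 3 control libraries. Per the paper's methods and the labels, the authors used FastQC, Trimmomatic, Bowtie with mm10 (an Ensembl release of GRCm38), featureCounts for counts per gene, and DESeq2. Versions of these tools, and the use of strand and of reads with several places, are not given in the sources used here. The authors deposited a signal per gene and library, which is its count over the size factor that DESeq2 gave the library. The table also holds their fold changes and p-values, which were not used. Its columns name the genotype, but their numbers disagree with those of the sample descriptions, so each column was used as a replicate of its genotype.

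Dividing each column by its step gave whole reads for 100% of the values (tolerance 0.01 reads), with 71145068 to 104017800 reads on genes per library. The 20459 genes that had 10 or more reads in 3 or more libraries were fitted with limma-trend on log2(normalized count + 1), genotype being the only term, with Benjamini-Hochberg adjustment over all of them (R 4.3.3, limma 3.58.1). Fold changes are on that scale and understate low genes. P-values measure the spread between these libraries. The fit was tested on simulated data. Single values were compared with two-sided exact permutation tests over libraries. Alternatives used edgeR 4.0.16 and DESeq2 1.42.0 on the recovered reads, other pseudocounts, filters and scalings, and each library left out. Python 3.11.15 was used for tables, sequences and plots, with Biopython 1.88, matplotlib 3.10.9, scipy 1.17.1, numpy 2.4.6 and pandas 2.3.3.

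Coordinates and exon lengths came from GENCODE M21 (GRCm38), and promoters from RefSeq (GRCm38). A pseudogene copy shares a run of 50 bases with the longest coding transcript of a member and was given to the member it shares most with. The members and lists were chosen with earlier results of these data known. Named are Rpl29, members at an unadjusted p under 0.05, members without overlap, the 5 highest and 5 lowest per kilobase, members of the lists, up to 4 genes of smallest p in other lists, and the nearest neighbours of Rpl29; copies and further members were named after their values were seen. Some genes that these rules select are not reported here.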

Additional observations from a re-analysis of the deposited data

How the results depend on the processing

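No paired analysis was possible because the columns of the table do not carry the replicate numbers of the labels. Rpl29 stayed lower in Bmal1;CKO under all 17 alternatives, with adjusted p from 1.45e-25 to 0.977. It passed the FDR of 0.05 with DESeq2 (log2 fold change -5.81). In limma-trend it passed without control library 1 (-5.14, adjusted p = 0.0166) and when scaled to the member reads (-5.36, 0.0226). It also passed there with genes of at least 1 read in total (-5.63, 0.0460) and with at least 10 reads in every library (-5.63, 0.0104). In each of these fits 1 member passed, beside 0.00291% to 0.327% of all genes. Leaving out a library gave -6.12 to -5.14 and 0 to 1 such members, the 1 without control library 1, and -6.12 to -5.48 with 0 members for the other 5 libraries. At an unadjusted p under 0.05, DESeq2 put 4 members lower (3.34% of all genes), the scaling to member reads 1 (0.288%) and the summed copies 1 (1.74%); the filter of 10 reads in every library put 2 higher (2.31%) and the summed copies 0 (3.17%). Leaving out a library gave 1 to 12 lower and 0 to 3 higher, the 12 without control library 3. Of all genes, these fits put 0.753% to 4.65% lower and 1.31% to 7.3% higher. Members without overlap numbered 10 higher (5.33% of all genes) when scaled to member reads, and 1 lower and 0 higher with the copies summed. For the summed copies that share of all features was not computed. Leaving out a library gave 3 to 29 lower and 2 to 7 higher without overlap, with 29 lower (14% of all genes) without control library 3. Over the left-out libraries, 6.83% to 14% of all genes were lower in this sense and 9.62% to 16.7% higher. With the copies summed, the log2 fold changes of Rpl18 and Rpl3 turned to -0.220 and -0.0543. The other 83 of 85 values of 5 named members kept their direction, and none of the 85 passed the FDR of 0.05. Rpl15 and Rpl18, named for an unadjusted p under 0.05 in limma-trend, did not keep it in every fit. Both lost it without Bmal1;CKO library 4, without Bmal1;CKO library 5 and with the copies summed. The difference in the share of reads was -0.0762 percentage points, -0.248 with the named pseudogenes included, and -0.124 to -0.0466 with a library left out. The log2 ratio of the group means was -5.78 for Rpl29 with the pseudogenes named after it and -2.72 with all copies. The sums with copies were added after seeing the data. Some of these fits hold fewer samples or genes, and the causes of the differences between fits were not tested. Other tests and pseudocounts do not touch the overlap of groups, and a count of 0 or a few reads in a library, as in Rpl3l and the copies of Rpl29, limits what can be said of that gene.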
